A study of Mus musculus with 10 samples.

Results

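The transcriptome of CD31+/CD45- cells sorted from mouse lung metastases is described here over the 5 metastasis libraries, chosen by their titles, of the 10 libraries in the series. The other 5 are from normal lung and enter only as a background value. The hosts were wild type C57BL6/J female mice, 6 to 8 weeks old when they received E0771-LG cells, a murine breast cancer line, through the tail vein. The samples carry an age of 8 to 10 weeks, with the same strain and genotype in both groups. Each sample pooled metastases under 1 mm in diameter from 2 to 4 mice, and nothing in the labels ties a replicate number to a day or batch. The tissue was digested for 30 min at 37 °C with alpha-amanitin and actinomycin D, inhibitors of transcription, in the buffer. Live cells carrying CD31, an adhesion molecule of endothelial cells and platelets, and lacking CD45, the common surface protein of leukocytes, were then sorted for total RNA sequencing. P-values below measure the spread between these 5 pools only.

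Lung capillaries are lined by general capillary cells, which can renew the vessel wall, and by aerocytes, which are spread thinly over the alveoli for gas exchange. A growing metastasis takes over such vessels or draws new ones, and its endothelial cells lie close to tumour cells, macrophages, fibroblasts and platelets. Pecam1 encodes CD31 itself. Cdh5 encodes VE-cadherin, the adherens junction protein of endothelium, Kdr the main VEGF receptor and Tek the angiopoietin receptor Tie2. The mean log2 CPM (a gene's counts relative to the gene total of its library, scaled by the TMM method) of these 4 genes is called the endothelial index below. It ordered the libraries, and each other gene was then tested for a slope along it.

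Counts assigned to genes came to between 21.7 and 54.3 M per library, and 13521 to 14501 genes had at least 1 count. Replicate 2 stood apart, with the highest gene total (54.3 M), the lowest share of reads in no gene (57.9%, against 71.8 to 73.7% in the others) and the highest share of Rn45s, the ribosomal RNA precursor (4.61%, against 0.647 to 1.45%). Pearson correlations of log2 CPM between pairs of libraries, taken over genes that are not independent of each other, ran from 0.655 to 0.789, with replicates 4 and 5 most alike. The spread between libraries was wide. Of 8226 genes with a mean of at least 10 CPM, 3646 (44.3%) differed more than 10-fold between the highest and the lowest library and 403 (4.90%) less than 2-fold. It narrowed with abundance, from a median SD of 1.85 on the log2 scale at 10 to 30 CPM to 0.65 at 300 CPM or more. The common biological coefficient of variation, taken from the slope fit and so the spread left around the slopes on the index, was 1.09.

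With TMM scaling, the 5 libraries differed 6.53-fold in the endothelial index. The index was 9.65 in replicate 1, 9.40 in replicate 3, 8.86 in replicate 2, 7.68 in replicate 4 and 6.94 in replicate 5, so 3 libraries were high and 2 were low. With library totals in place of TMM, the index had a smaller range, from 9.37 in replicate 1 to 7.20 in replicate 5. When all 10 libraries were scaled together, the metastasis libraries lay between 6.76 and 9.55 and the normal lung libraries between 10.8 and 11.6. Pecam1 (chromosome 11, 106654217 to 106750628) was at 1519, 599, 947, 258 and 160 CPM in replicates 1 to 5, and followed the index in full. Cdh5 (chromosome 8, 104101625 to 104144511) was at 2538, 1560, 1405, 722 and 333 CPM. Kdr (chromosome 5, 75932827 to 75978458) was highest in replicate 3, at 581, 229, 843, 244 and 171 CPM. Tek (chromosome 4, 94739289 to 94874976) was level in replicates 1 to 3 and low in replicates 4 and 5, at 186, 219, 186, 38.5 and 25.2 CPM. All 4 genes were higher in each of replicates 1 and 3 than in each of replicates 4 and 5, and replicate 2 was below replicate 4 for Kdr. These levels define the index and are given as a description. In sorted bulk RNA, fewer cells of a type and less RNA per cell cannot be told apart.

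**Figure D1:**
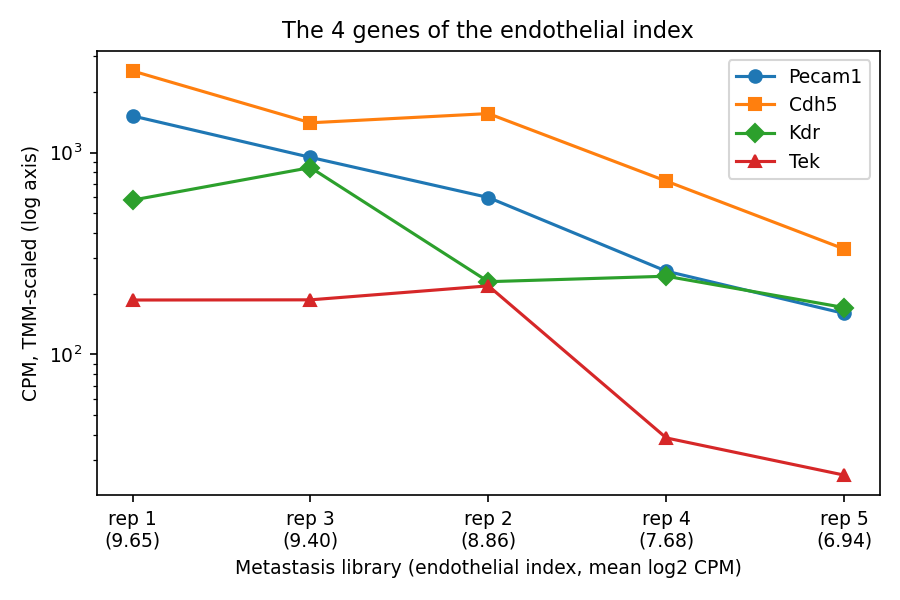
CPM (log axis) of the 4 genes whose mean log2 CPM is the endothelial index, by metastasis library, with libraries ordered by the index, whose value stands in brackets. Each point is 1 library. The index falls from 9.65 in replicate 1 to 6.94 in replicate 5. Only Pecam1 follows its order in full, and Kdr is at 229 CPM in replicate 2 and 843 in replicate 3.

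Levels of different genes were compared by FPKM, which accounts for transcript length, and ranked within each library. B2m, the light chain of MHC class I, ranked between 2 and 5 in every library, at 9160, 4837, 18315, 6499 and 6481 FPKM in replicates 1 to 5. Malat1, a nuclear long noncoding RNA, ranked between 4 and 15. Fth1, the ferritin heavy chain, ranked between 7 and 13, and Vim, the intermediate filament protein vimentin of mesenchymal and endothelial cells, between 7 and 14. Atp5b, a subunit of the mitochondrial ATP synthase, stayed between 12 and 20 and Ldha, lactate dehydrogenase A, between 14 and 40. Ppbp, a platelet chemokine, stood at rank 4 in replicate 1 and at rank 45 in replicate 5. Other leaders were Rpl41, Actb, Gnas, Ybx3, Igfbp7 and Hsp90ab1, with ranks between 8 and 56. Only 38 genes were among the 100 highest in all 5 libraries. Mir703 also ranked among the leaders, from only 1.47 to 8.29 CPM. FPKM divides by length and this gene is very short, but the part of length in its rank was not tested. Its CPM was highest in replicate 1 (6245 FPKM) and its FPKM in replicate 5 (12912 FPKM, 2.90 CPM). Rn45s ranked 3 to 5 in 4 libraries and was listed at 0 FPKM in replicate 2, where it had 39192 CPM, so a listed 0 can be a failed estimate.

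Of the marker genes outside the index, Spp1 and Lyz2 were also abundant, while Col6a3 and Bub1 ranked lower. Spp1, the secreted phosphoprotein osteopontin, ranked between 49 and 159 by FPKM and was at 411, 340, 423, 617 and 731 CPM. Lyz2, the lysozyme of macrophages and granulocytes, ranked between 23 and 42 in replicates 2 to 5 and 241 in replicate 1. Its counts came to 228, 850, 1345, 761 and 723 CPM, so only replicate 1 was low. Cdh5 ranked between 37 and 360, Pecam1 between 80 and 1016, Kdr between 544 and 1801 and Tek between 1329 and 7016. Spp1 had the higher rank of the pair Spp1 and Cdh5 in replicates 4 and 5, and Cdh5 in replicates 1 to 3. Myc, the growth regulator, ranked 271 in replicate 1 and between 19 and 47 in the others, with 286, 718, 1916, 876 and 990 CPM. Col6a3, a fibroblast collagen chain, ranked between 1024 and 4192 and was highest in replicate 1, at 530, 123, 103, 186 and 176 CPM. Bub1, a kinase of the spindle checkpoint, ranked between 980 and 5454 and was lowest in replicate 2, at 488, 62.5, 481, 344 and 264 CPM. None of these marker genes passed the slope test. Their slopes were -0.34 ± 0.26 (SE) for Spp1, 0.33 ± 0.33 for Col6a3, 0.00 ± 0.30 for Lyz2 and 0.23 ± 0.32 for Bub1.

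**Figure D2:**
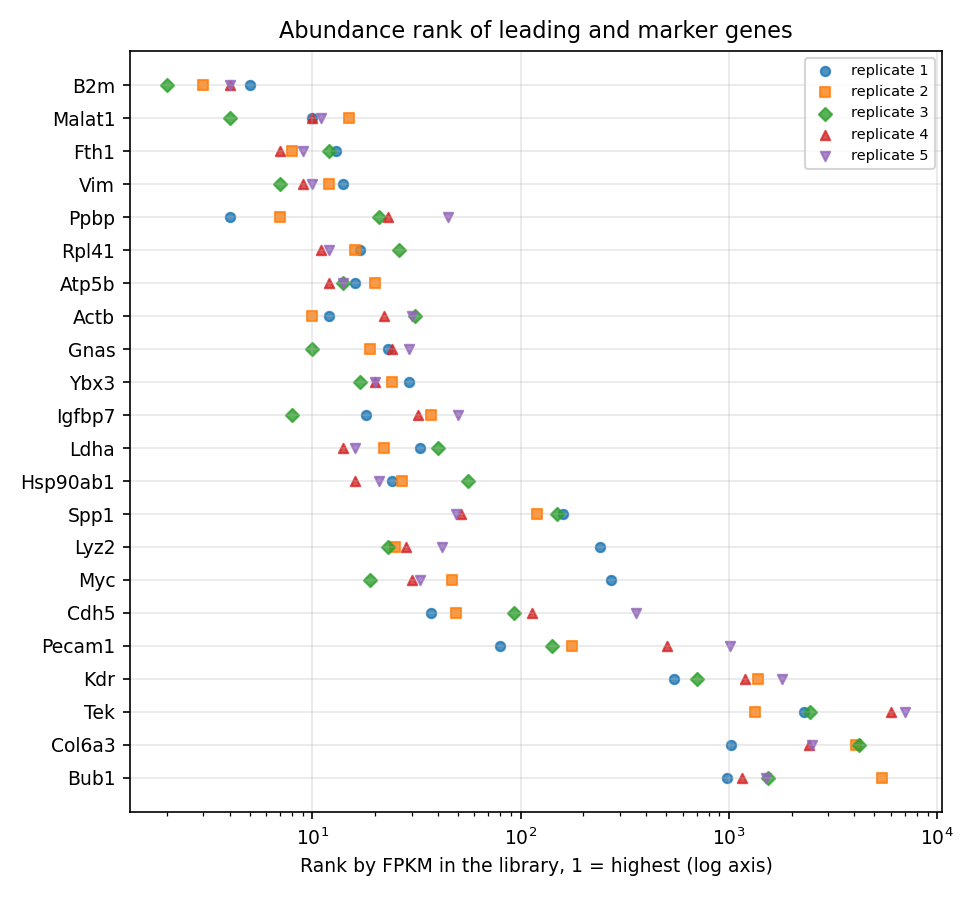
Rank by FPKM (log axis, 1 is the highest gene) of the leading genes and of marker genes in each metastasis library, 1 point per library. B2m stays within ranks 2 to 5, and the endothelial genes spread widely, Pecam1 from 80 to 1016.

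A slope is the change in log2 CPM per unit of the index, so that 1 means proportional to the index and 0 no change along it. In all, 4 genes of 12590 tested (0.0318%) rose with the index at an adjusted p under 0.05 by edgeR's quasi-likelihood test, and 0 (0%) fell with it. At an unadjusted p under 0.05, 681 genes (5.41%) had a positive slope and 341 (2.71%) a negative one. DESeq2 called 282 rising and 175 falling, and all 4 edgeR genes were among its calls. The median slope of all genes was 0.11, with quartiles at -0.41 and 0.61, and the median SE was 0.77, which limits what a single slope can show. The 4 genes that rose were Prkar2b, Treml2, Cd200 and F5.

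Prkar2b encodes a regulatory subunit of protein kinase A (chromosome 12, 31958476 to 32061296). It was at 582, 110, 246, 26.5 and 8.30 CPM in replicates 1 to 5, in the full order of the index, with a slope of 2.13 ± 0.39 (SE, adjusted p = 0.0315, edgeR). Cd200 encodes a surface glycoprotein of endothelial and other cells that binds an inhibitory receptor on myeloid cells (chromosome 16, 45382135 to 45409053). It was at 929, 99.0, 465, 34.0 and 22.0 CPM, also in full order, with a slope of 1.95 ± 0.34 (adjusted p = 0.0315, edgeR). The highest library was 70.1-fold above the lowest for Prkar2b and 42.1-fold for Cd200. Treml2, a receptor of the Trem family (chromosome 17, 48299498 to 48312533), was at 1163, 259, 172, 32.4 and 21.7 CPM, with a slope of 1.99 ± 0.36 (adjusted p = 0.0315, edgeR). F5, coagulation factor V, which platelets also store (chromosome 1, 164151838 to 164220277), was at 4123, 1021, 788, 283 and 169 CPM, with a slope of 1.52 ± 0.29 (adjusted p = 0.0402, edgeR). In Treml2 and F5 replicate 2 lay above replicate 3, against the order of the index. The summed CPM of 9 platelet genes had that same order, at 15386, 3914, 2258, 1247 and 1078 CPM in replicates 1 to 5. So did the summed CPM of 24 endothelial genes outside the index, at 7315, 3958, 3396, 1372 and 1022 CPM. The part of either in these slopes was not tested. The 4 calls are close to the threshold. With RLE scaling 0 genes passed (adjusted p of 0.0516 to 0.0867 for the 4, edgeR), with an index of 24 other endothelial genes 0, with limma on FPKM 0, and leaving out replicate 2, 4 or 5 also left 0, while 33 rose without replicate 1, of the 4 only Cd200 among them, and 136 without replicate 3, all 4 among them. The slopes of these 4 genes stayed positive under every setting run, the lowest being 0.89 for F5 within replicates 3 to 5 alone, while the adjusted p ran from 8.16e-06 (Treml2, without replicate 3, edgeR) to 1 (Prkar2b, without replicate 5, edgeR).

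The bases just before the start site of 3 of these genes are shown because the genes share a pattern over the 5 libraries. They are RefSeq's for GRCm38.p6, the 250 bases before the RefSeq start, read 5′ to 3′ on the gene's strand. Prkar2b had 2 entries, of which only the first is shown and searched. Treml2 was not among the matched entries. Capitals mark the letters AGATAA, which resemble sites of the GATA family of transcription factors.
Prkar2b (chr12:32061278-32061527, minus strand): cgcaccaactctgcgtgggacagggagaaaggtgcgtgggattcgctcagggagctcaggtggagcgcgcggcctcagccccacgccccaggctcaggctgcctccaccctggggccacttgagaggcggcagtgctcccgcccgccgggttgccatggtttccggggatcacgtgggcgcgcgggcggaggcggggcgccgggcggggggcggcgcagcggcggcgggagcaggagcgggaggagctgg
Cd200 (chr16:45409054-45409303, minus strand): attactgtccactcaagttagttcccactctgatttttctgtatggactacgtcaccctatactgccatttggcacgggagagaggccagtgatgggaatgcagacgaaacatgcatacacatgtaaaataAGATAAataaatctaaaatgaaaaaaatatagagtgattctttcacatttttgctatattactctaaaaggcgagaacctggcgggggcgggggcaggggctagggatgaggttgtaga
F5 (chr1:164151585-164151834, plus strand): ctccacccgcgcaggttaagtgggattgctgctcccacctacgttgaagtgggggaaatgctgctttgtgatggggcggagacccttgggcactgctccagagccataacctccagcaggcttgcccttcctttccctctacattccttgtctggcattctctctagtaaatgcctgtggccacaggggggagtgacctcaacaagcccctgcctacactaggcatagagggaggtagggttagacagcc
Both strands were searched. The first motif of ETS factors, a family active in endothelium, was CAGGAAG. A second form with another flank was CCGGAAG, and 1 site can match only 1 of these forms. AGATAA was found once, in Cd200, starting 119 bases before the start, and 9.99% of all 32851 promoter windows of this length hold it. Neither ETS motif was found in the 3 windows shown, nor in those of Kdr and Tek, and 17.0% of all windows hold at least 1 of them. A match is a description of letters, and a missing match says only that these letters are not in this window.

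**Figure D3:**
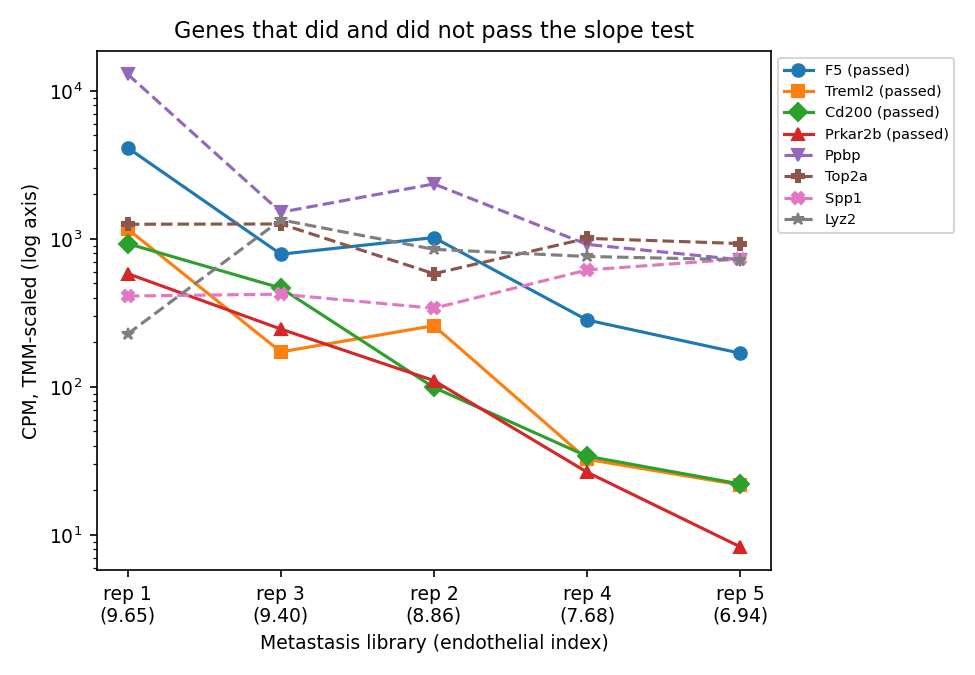
CPM (log axis) by metastasis library, ordered by the index in brackets, for the 4 genes that rose with the index (solid lines) and 4 genes that did not pass the test (dashed lines). Each point is 1 library. Prkar2b spans 582 to 8.30 CPM, while Top2a stays between 582 and 1262 and Spp1 between 340 and 731.

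Genes listed as broad endothelial markers leaned the same way as the index, and edgeR called no single one. Of 24 other pan-endothelial genes, all tested, 24 had a positive slope (56.4% of all genes did), 7 had an unadjusted p under 0.05 (5.41% of all genes), and 0 passed after adjustment (edgeR). DESeq2 gave an adjusted p of 0.0411 for Ptprb and 0.0454 for Vwf. The median slope of the 24 was 0.82, against 0.11 over all genes, but 0.34 with a term for replicates 1 and 2 and 0.41 within replicates 3 to 5 alone. Ptprb, the VE-PTP phosphatase that binds Tie2 and VE-cadherin (chromosome 10, 116275523 to 116389535), was at 3028, 968, 995, 330 and 222 CPM, with a slope of 1.26 ± 0.27 (adjusted p = 0.117, edgeR). It had the lowest edgeR adjusted p of the 24. Eng, a TGF-beta coreceptor, was at 354, 394, 201, 79.9 and 72.9 CPM. Flt1, the decoy VEGF receptor, was at 636, 287, 116, 116 and 109 CPM, highest in replicate 1, next in replicate 2 and level in replicates 3 to 5. Vwf, the von Willebrand factor, was at 683, 756, 25.7, 75.1 and 18.6 CPM, high in replicates 1 and 2 only, and its slope of 1.78 was -0.16 within replicates 3 to 5 alone. Ramp2, the adrenomedullin coreceptor, was highest in replicate 3 instead, at 226, 66.9, 763, 49.9 and 31.6 CPM. Cldn5, a tight junction protein, stayed between 9.13 and 24.9 CPM. The mean log2 CPM of the 24 genes was 6.47, 6.24, 5.65, 4.73 and 4.57 in replicates 1 to 5, which puts replicate 2 above replicate 3, unlike the index.

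The general capillary list had its highest mean in replicate 1 and the aerocyte list in replicate 3. Of 12 general capillary genes 11 had a positive slope (56.4% of all genes did), and the list median was 0.96. Cd93, a C-type lectin-like receptor, was at 1481, 949, 699, 269 and 213 CPM, and Cd36, a fatty acid receptor, at 1442, 330, 1416, 349 and 231 CPM. Kit, the stem cell factor receptor, was at 173, 143, 59.3, 39.5 and 14.1 CPM. Of 11 tested aerocyte genes all had a positive slope, with a median of 0.88. Ednrb, an endothelin receptor, was at 341, 125, 1045, 149 and 83.3 CPM, and Igfbp7, a secreted protein of the vessel wall, at 615, 272, 843, 219 and 182 CPM. Car8 was left untested, with 39.8 CPM in replicate 3 and at most 0.33 in the others. In these lists 5 general capillary and 6 aerocyte genes had an unadjusted p under 0.05, all with positive slopes (5.41% of all genes). None passed after adjustment (edgeR). With library totals the medians were 0.88 for general capillary and 0.77 for aerocyte genes, and within replicates 3 to 5 alone they were 0.59 and 1.08.

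Arterial, venous and tip-cell lists had medians nearer to that of all genes. Arterial genes had a median slope of 0.32 (8 of 11 positive) and venous genes 0.31 (7 of 11). Neither list had a gene at an unadjusted p under 0.05. Of all genes, 56.4% had a positive slope, and 5.41% had one with an unadjusted p under 0.05 (edgeR). Sele, the E-selectin of activated endothelium, was highest in replicate 5, at 52.1, 30.0, 123, 73.3 and 147 CPM. Efnb2, an arterial ephrin, was at 245, 211, 153, 79.2 and 73.9 CPM. Ackr1, a chemokine receptor of venules, was at 0 in all 5 libraries. Among 17 tested genes of tip cells and tumour vessels, the median slope was 0.27. Col4a2, a chain of basement membrane collagen, was at 985, 462, 823, 180 and 117 CPM (slope 1.16 ± 0.29) and Nid1, the basement membrane protein nidogen, stayed between 1218 and 3578 CPM (0.20 ± 0.24). Inhbb, an activin subunit, leaned the other way, at 3.78, 20.7, 0.553, 2.51 and 96.8 CPM. Lymphatic genes had a higher median slope, of 1.05 over 6 tested genes, with 5 positive and 2, Lyve1 and Mmrn1, at an unadjusted p under 0.05. Lyve1, a hyaluronan receptor also found on some macrophages and lung capillaries (chromosome 7, 110850607 to 110863239), was at 1826, 265, 404, 176 and 101 CPM, in full order (slope 1.31 ± 0.30, adjusted p = 0.193, edgeR), and its slope was 0.75 without replicate 1. Prox1, the defining lymphatic regulator, was at most 1.35 CPM, and Ccl21a, Reln and Nts were at 0.

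**Figure D4:**
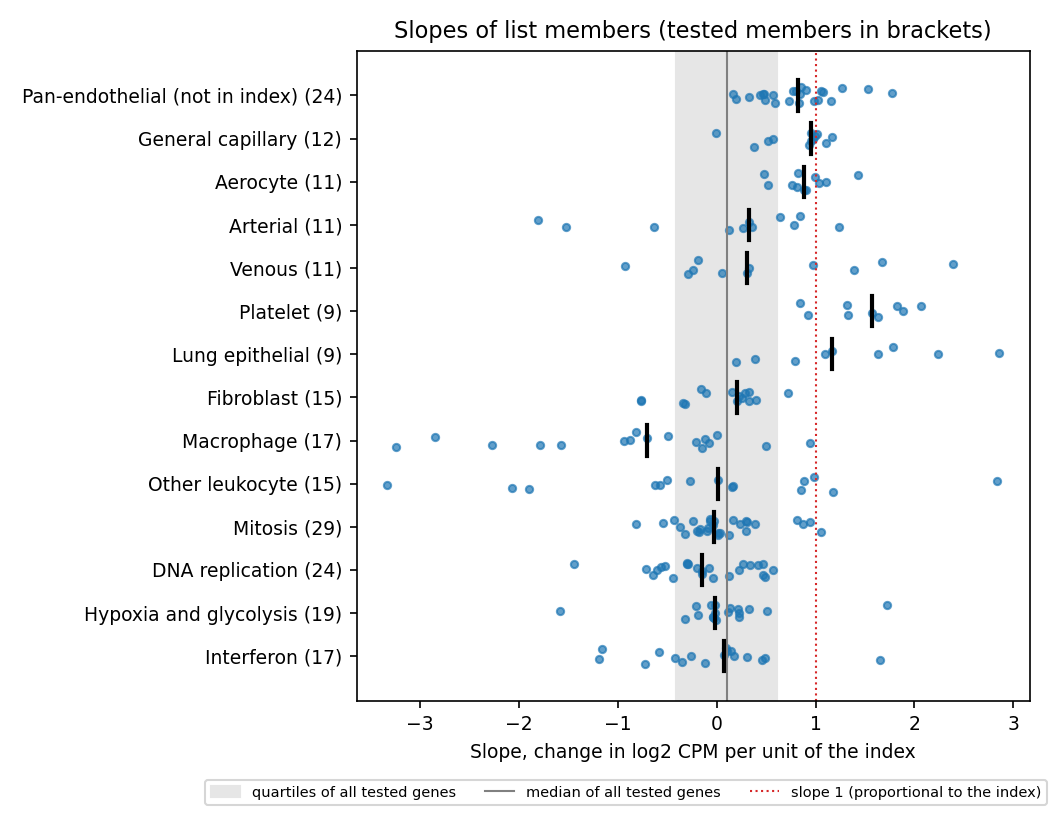
Slope of each tested member of 14 gene lists on the endothelial index (points, 1 gene each, shifted up or down to be seen), with the list median as a black bar, the number of tested members in brackets, and the quartiles (-0.41 and 0.61) and median (0.11) of all tested genes in grey. All 24 pan-endothelial and all 9 platelet members lie right of 0, and 14 of 17 macrophage members lie left of it.

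Platelet transcripts had the highest median slope among the lists. All 9 had a positive slope (56.4% of all genes did), with a median of 1.57. Of the 9, 5 had an unadjusted p under 0.05 (5.41% of all genes did with a positive slope), and 0 passed after adjustment (edgeR). Ppbp (chromosome 5, 90768518 to 90770063) was at 12948, 2352, 1515, 918 and 723 CPM, with a slope of 1.32 ± 0.28 (adjusted p = 0.0941, edgeR). That slope was 0.62 without replicate 1 (adjusted p = 0.704, edgeR), 0.65 with a term for replicates 1 and 2 and 0.43 within replicates 3 to 5 alone. Pf4, another platelet chemokine, did not share that order and was highest in replicate 3, at 60.2, 79.2, 382, 12.5 and 6.26 CPM. Itgb3, the beta chain of the fibrinogen receptor, was at 1287, 1055, 271, 135 and 263 CPM, and Gp1ba, the von Willebrand factor receptor subunit, at 744, 254, 60.4, 164 and 66.4 CPM. In 7 of the 9 genes, all but Pf4 and Gp1bb, replicates 1 and 2 were the highest libraries. With a term for replicates 1 and 2 the list median was 0.16, within replicates 3 to 5 alone it was 0.26, and on log2(FPKM + 1) it was 0.90. Fhl1, a LIM-domain protein, and Cysltr2, a leukotriene receptor, are not in the platelet list. They were named for their full index order and large slope. Fhl1 was at 445, 131, 241, 34.3 and 9.96 CPM (slope 1.90 ± 0.40, adjusted p = 0.0941, edgeR), and Cysltr2 at 139, 23.6, 40.1, 1.41 and 0.888 CPM. In all, 125 genes (0.993%) were in the full order of the index and 157 (1.25%) in its reverse.

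Lung epithelial transcripts were low and leaned with the index. The summed level of the list was 246, 174, 224, 57.9 and 45.9 CPM in replicates 1 to 5. The 9 tested members had a median slope of 1.16, all positive (56.4% of all genes), or 8 with library totals (46.8%). The median was 0.47 with a term for replicates 1 and 2, 0.26 within replicates 3 to 5 alone and 2.05 on the index of other pan-endothelial genes. Sftpa1, a surfactant protein of alveolar type 2 cells, was at 146, 9.55, 69.2, 9.03 and 3.98 CPM, in full order. Sftpc, the defining type 2 gene, was at most 15.3 CPM. Of 16 epithelial markers of mammary tumours 9 were tested, with a median slope of 0.31 and a summed level over the 16 of 67.4, 161, 204, 161 and 171 CPM in replicates 1 to 5. Areg, the growth factor amphiregulin, made up most of that sum in replicates 2 to 5, at 29.7, 85.7, 191, 116 and 102 CPM. Krt19, another keratin, was at 23.5 CPM in replicate 2 and at most 0.463 in the others. Krt5, Elf5, Cldn3 and Cldn4 were at 0 in all 5 libraries and Epcam reached 4.86 CPM in replicate 4 only. Krt8, a keratin of simple epithelia, was between 5.14 and 46.2 CPM. Of the 7 red cell genes 5 were at 0 throughout, and none was tested.

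Macrophage genes leaned against the index, with 14 of 17 slopes negative, while 56.4% of all genes had a positive one. Their median slope was -0.70, and 0 had an unadjusted p under 0.05 (edgeR), against 2.71% of all genes with a negative slope. The median was -0.32 without replicate 1, -0.30 without replicate 4, -0.22 with the filter in all 5 libraries and -1.34 without replicate 5. Their summed level was 962 CPM in replicate 1 and 2259 to 2990 CPM in the other libraries. Csf1r, the receptor of macrophage growth factor, was at 0.953, 108, 6.25, 15.3 and 2.74 CPM. Its slope of 0.95 ± 1.34 was positive and the highest of the list. Mrc1, the mannose receptor, was at 1.06, 95.6, 36.1, 69.4 and 95.9 CPM, and Marco, a scavenger receptor of alveolar macrophages, at 0.293, 40.6, 0.774, 25.1 and 83.0 CPM. These receptors were lowest in replicate 1, where Lyz2, Cd68 and Ctss were still at 228, 73.4 and 40.6 CPM. Apoe was at 0 in replicate 1, and Trem2 in replicates 1, 3 and 5. Other leukocyte genes had a median slope of 0.01, and Itgax, an integrin of dendritic cells and alveolar macrophages, was the only one with a negative slope at an unadjusted p under 0.05, at 0.0733, 0.0782, 0.166, 8.59 and 31.0 CPM. Ptprc, the gene of the CD45 excluded by the sort, was at 129, 137, 171, 90.7 and 127 CPM, with a slope of 0.15.

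Fibroblast genes were present in every library and mural genes were scarce. Fibroblast genes had their highest list mean in replicates 2 and 5. Their median slope was 0.21 (9 of 15 positive, against 56.4% of all genes). That median changed sign without replicate 2 (-0.07), without replicate 4 (-0.12), with a term for replicates 1 and 2 (-0.03), with the log2 gene total as a covariate (-0.10) and on log2(FPKM + 1) (-0.01) and log2(FPKM + 0.1) (-0.09). Col1a1, a chain of fibrillar collagen, was at 16.6, 344, 120, 21.7 and 86.1 CPM and Col3a1 at 255, 196, 132, 137 and 93.9 CPM. Dcn, decorin, was at 4.66, 88.9, 64.7, 14.5 and 36.8 CPM. The pericyte and smooth muscle list was low, with a summed 15.8 to 203 CPM. Its 7 tested members had a median slope of 1.01, with 5 positive and 0 at an unadjusted p under 0.05 (edgeR). That median was 0.64 with RLE scaling and 1.51 with library totals. Acta2, smooth muscle actin, reached 44.8 CPM in replicate 2 and was at most 3.07 in the others.

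**Figure D5:**
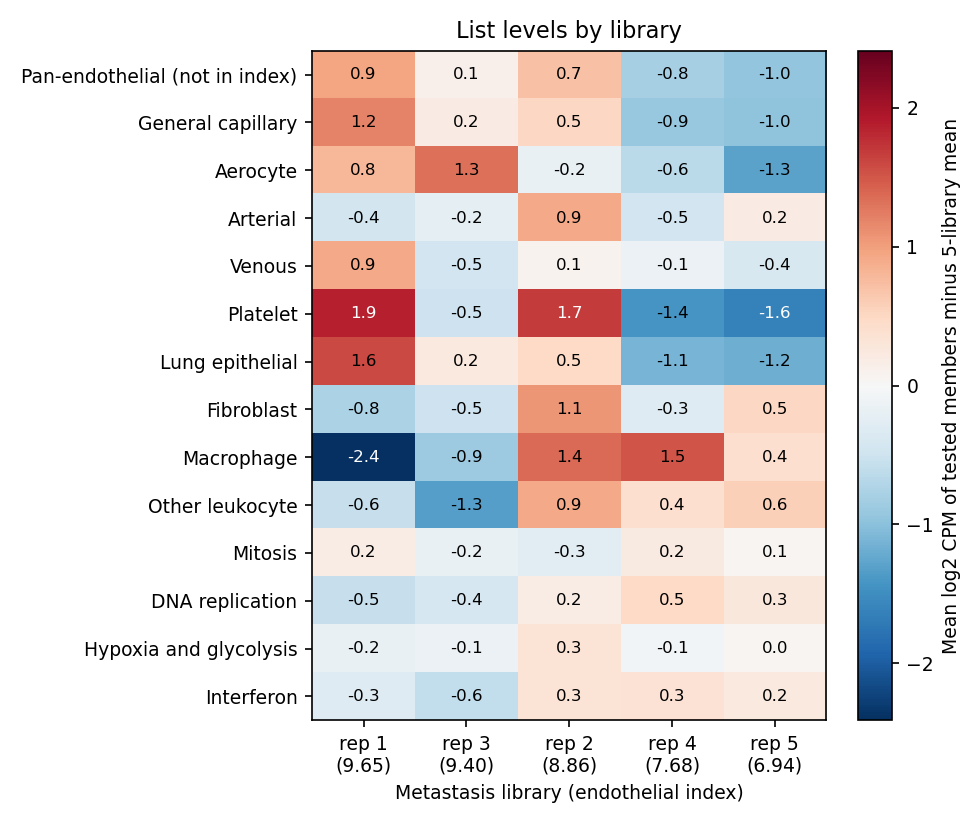
Mean log2 CPM of the tested members of 14 gene lists in each metastasis library, minus the list's mean over the 5 libraries, with libraries ordered by the endothelial index in brackets. Red is above and blue below the mean, with the value printed in each cell. Platelet genes are 1.9 and 1.7 above in replicates 1 and 2, and macrophage genes 2.4 below in replicate 1.

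Cell division genes were abundant in every library, including those of low index. Of 29 mitosis genes 14 had a positive slope (56.4% of all genes did), with a median of -0.03. Their summed level was 4079 to 7674 CPM. Top2a, the topoisomerase of dividing cells, was at 1257, 582, 1262, 1009 and 930 CPM. Mki67, the gene of the Ki-67 antigen, was at 733, 569, 516, 908 and 625 CPM, and Cenpe, a kinesin of the kinetochore, at 956, 468, 629, 952 and 827 CPM. Ect2, a regulator of cytokinesis, was the only member with an unadjusted p under 0.05, at 192, 88.2, 308, 27.4 and 44.6 CPM (slope 1.06 ± 0.40). DNA replication genes had a median slope of -0.15 (9 of 24 positive), and Mcm6, a helicase subunit, stayed between 84.6 and 159 CPM. With library totals 7 of 29 mitosis and 6 of 24 replication genes had a positive slope. Of all genes 46.8% did with that scaling, and their median slope was -0.07.

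Matrix-associated genes went different ways. The median slope of 17 matricellular genes was -0.07. Thbs1, the thrombospondin of platelets and activated stroma, was at 1340, 1396, 1153, 110 and 176 CPM (slope 1.32 ± 0.32), level in replicates 1 to 3 and low in replicates 4 and 5. S100a4, a calcium-binding protein of motile cells, was in full order at 77.8, 6.87, 14.7, 0.972 and 0.270 CPM. Ctgf, a YAP target, was at 166 CPM in replicate 1 and at most 4.98 in the others. Fn1, fibronectin, was highest in replicate 2, at 289, 1473, 193, 149 and 380 CPM. Tnc, tenascin C, was at 74.1, 302, 71.7, 191 and 225 CPM.

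Hypoxia and glycolysis genes had a median slope of -0.01 (19 tested), interferon genes 0.07 (17), antigen presentation genes 0.19 (14), immediate early genes 0.04 (15), oxidative phosphorylation genes -0.05 (21) and ribosomal protein genes -0.02 (73). The medians of the hypoxia, mitosis and other leukocyte lists changed sign with RLE scaling (0.03, 0.04 and -0.26), and that of the interferon list with library totals (-0.31). Vegfa, the ligand of Kdr, was at 185, 224, 62.0, 74.3 and 115 CPM, without the order of its receptor. Ifi44, an interferon target, was at 524, 179, 1050, 660 and 514 CPM, and Oasl2, another, at 765, 489, 1061, 663 and 659 CPM. Jun, an immediate early transcription factor, was at 473, 212, 337, 99.7 and 117 CPM. Ribosomal protein genes took only 0.282 to 0.444% of gene counts, and Gapdh 6.89 to 25.0 CPM. Both have near-identical copies in the genome, and 10.5 to 13.6% of reads aligned to several places and were not counted, so their levels are uncertain. The noncoding RNAs had a median slope of 0.60 over 6 genes. Malat1 was at 33652, 11038, 70351, 19204 and 19058 CPM, and Xist, the RNA of the inactive X chromosome (chromosome X, 103460366 to 103483254), at 4072, 1393, 9941, 1414 and 1061 CPM (slope 1.03 ± 0.27, and 0.63 without replicate 3). Both were highest in replicate 3.

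Genes in the reverse order of the index are lowest in replicates 1 and 3 by that choice. Among them, the 10 of steepest negative slope were picked for description. Nek2, a centrosome kinase, was at 1.61, 25.9, 3.70, 80.1 and 83.1 CPM (adjusted p = 0.473, edgeR). Chek2, a DNA damage kinase, was at 0.147, 0.516, 0.498, 5.33 and 66.1 CPM, and Tifa, an adaptor of innate immune signalling, at 0.0367, 0.798, 0.111, 11.9 and 38.1 CPM. Gca, Spns1, Med25, As3mt, Rpl12 and Trim27 were also among the 10, with slopes between -3.19 and -2.02. Each of these was at most 6.96 CPM in replicates 1 to 3.

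Among the genes of steadiest level at a mean of at least 100 CPM were Dpp8, Ldha, Fndc3b, Prrc2c, Srrm1, Nars, Hif1a, Itgav and Chd6, each with an SD of 0.10 to 0.17 on the log2 scale. Ldha was at 1035, 1044, 889, 1005 and 1049 CPM. Hif1a, the oxygen-regulated transcription factor, was at 509, 440, 582, 476 and 458 CPM. The most variable genes of at least 10 CPM were Zfp94, Frem3, Tas2r108, Ccdc8, Spata9, Cyp21a1, Ss18l2, Il11ra1, Klra3 and Cntd1, with SDs of 3.99 to 4.30. Each had most of its CPM in 1 or 2 libraries. Zfp94, a zinc finger gene, was at 210, 0.266, 102, 0.407 and 5.33 CPM.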

How the data were processed

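Sorted CD31+/CD45- cells gave total RNA for libraries made with the Ovation RNA-Seq System V2 amplification kit and read as 100 bp pairs, per the labels' protocols, which state 60 to 80 M reads for each. Tools listed in the submitters' processing notes are HTSeq 0.6.1, TopHat2 2.0.13, DESeq2 1.6.3 and Cufflinks 2.2.1, and the builds listed are GRCm38 and mm10. Which annotation and strand setting were used is not given in the sources used, which leaves overlapping and antisense genes uncertain. Raw counts, whole numbers for each gene, were deposited by the authors with HTSeq's summary categories, and these categories were kept out of library totals. The deposited FPKM table, fragments per transcript length and depth, was made by the authors for 24460 genes and was used for ranks between genes.

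Counts of 24538 genes were read, 8412 of them at 0 in all 5 metastasis libraries. Genes needed the CPM of 10 counts at the median library size in at least 2 of 5 libraries and 15 counts in all, which left 12594. The 4 index genes define the index and were not tested, leaving 12590. With R 4.3.3, log2 CPM was computed on TMM-scaled libraries with a prior count of 2, and edgeR 4.0.16 (quasi-likelihood F test, robust, two-sided, Benjamini-Hochberg over all tested genes, threshold 0.05) tested the slope of each gene on the index over the 5 libraries. The SE of a slope is its size over the square root of F. The index and the genes come from the same libraries, and CPM values share a total. Ranks in FPKM used the mean of log2(FPKM + 1). No correlation across libraries is given because 5 are too few. The fit was tested on simulated data. DESeq2 1.42.0 and limma 3.58.1 were alternatives, with other scalings, filters, indices, covariates and left-out libraries. Positions are from GENCODE M21 (GRCm38), where 98.1% of tested symbols were found, and which the authors may not have used. Figures used matplotlib in Python.

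The libraries, the index, the markers and the gene lists were chosen with earlier results of these data known. Genes named are the index and marker genes, the 15 highest by mean FPKM, the called genes, filled to 10 in each direction with the largest slopes in full or reverse index order (mean of at least 10 CPM, predicted genes left out), the 10 genes of smallest SD (mean of at least 100 CPM) and the 10 of largest SD (at least 10 CPM), and in each list the 2 of highest CPM and the largest slope each way. A few genes that the rule names are not reported here. Other members, and Myc, were named after their values were seen. Depth ranged from 21.7 to 54.3 M gene counts.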

Additional observations from a re-analysis of the deposited data

Results flagged for a closer look

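In 132 groups of 5 values, for the named genes and the library measures, the highest or lowest library was compared with the nearest other. In 9 the gap took more than 0.71 of the range. Chance flags about 1 in 20 such groups. The library measures that stood apart were both of replicate 2, its share of reads in no gene (57.9%, lowest) and its share of Rn45s (4.61%, highest). Ldha was lowest in replicate 3 (889 CPM), Itgav, the integrin alpha V chain, in replicate 1 (168 CPM), Icam1, a leukocyte adhesion receptor, in replicate 3 (39.9 CPM), and Rrm1, a ribonucleotide reductase subunit, in replicate 1 (67.4 CPM). Srrm1, a splicing factor, was highest in replicate 4 (233 CPM), Lamp3, a lysosomal membrane protein, in replicate 3 (112 CPM), and Cyp21a1, a steroid hydroxylase, in replicate 1 (96.5 CPM).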

How the results depend on the processing

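As reported, 4 genes were called rising and 0 falling with the index. Rising calls came to 0 with RLE scaling, with the index of other pan-endothelial genes, with limma on log2(FPKM + 1) and on log2(FPKM + 0.1) and at a threshold of 0.01, to 2 with library totals, and to 7 at a threshold of 0.1. They came to 29 with the log2 gene total as a covariate. With a term for replicates 1 and 2, 85 rose and 1 fell, and within replicates 3 to 5 alone 402 rose and 29 fell, from 3 libraries with 1 residual degree of freedom. DESeq2 called 282 rising and 175 falling. Leaving out each library in turn gave 0 to 136 rising and 0 to 7 falling, both highest without replicate 3. The cause of these differences was not tested. Counts of 3 to 6 rising followed from scaling over all 10 libraries, from other filters, from Pecam1 as the index and from thinning. The reported 4 remained called in DESeq2, with either added term, with Pecam1 as the index, with scaling over 10 libraries, with both other filters and without replicate 3. Of 10 lists recomputed under each setting, 5 had a median slope above 0.5, and 2 did so with the term for replicates 1 and 2 and within replicates 3 to 5. Full index order held for 80 genes with library totals, which also put replicate 2 above replicate 3 in the index, and reverse order for 87 with the filter in all 5 libraries. Of unadjusted calls, 66.6% had a positive slope with TMM, 71.4% with RLE and 43.1% with library totals, and the median slope of all genes was 0.11, 0.14 and -0.07. Between 87 and 95 of the 100 highest FPKM genes stayed so without a library. The median SD of 1.58 was 0.99 on log2(FPKM + 1). No paired analysis was possible because only 1 group is used, with 1 library per replicate number, and replicates 1 and 2 alone leave no residual degrees of freedom.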

Other observations

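Some genes were high in a single library. The rule was at least 100 CPM in 1 library and at least 10 times the next, over the 12594 genes that passed the filter. By it 51 genes stood out in replicate 1, 11 in replicate 2, 81 in replicate 3, 3 in replicate 4 and 1 in replicate 5. Nfkbie, an inhibitor of NF-kappaB, reached 8659 CPM in replicate 2 and 46.2 to 167 CPM in the others. Retsat, a retinol saturase, was at 869 CPM in replicate 1 and at most 11.8 in the others. Pcdhgb4, a protocadherin, was at 624 CPM in replicate 3 and at most 7.27 in the others. Cfap70, a cilium protein, was at 104 CPM in replicate 4 and at most 0.463 in the others. Gzmb, the granzyme of cytotoxic lymphocytes, was at 118.9 CPM in replicate 2 and at most 11.8 in the others. Esm1, an endothelial proteoglycan of tip cells, was at 113 CPM in replicate 1 and at most 10.9 in the others. The genes were chosen after their values were seen. Over the 8226 genes with a mean of at least 10 CPM, replicate 3 was the highest library for 32.0% and the lowest for 25.9%, while replicate 5 was the highest for 11.5% and the lowest for 15.1%.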
